A study of Mus musculus with 33 samples.

Results

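The D cyclins are the 3 genes Ccnd1, Ccnd2 and Ccnd3, taken here by their symbols from the 18854 genes listed in count tables of single cells from the mouse hippocampal neurogenic niche. A D cyclin binds the kinase Cdk4 or Cdk6, and the pair phosphorylates the retinoblastoma protein, which releases E2F factors and lets a cell pass from G1 into S phase. The 3 proteins are close relatives with overlapping function, and tissues differ in which of them they use. In the adult hippocampus cyclin D2 is known to be needed for the birth of new neurons, and cyclin D3 is known for its role in dividing immature lymphocytes. In GENCODE vM21 on mm10, Ccnd1 (ENSMUSG00000070348.5) lies on the minus strand of chromosome 7, from 144929931 to 144939925. Ccnd2 (ENSMUSG00000000184.12) lies on the minus strand of chromosome 6, from 127125162 to 127152193. Ccnd3 (ENSMUSG00000034165.16) lies on the plus strand of chromosome 17, from 47505051 to 47599691. The libraries read the 3' ends of transcripts, so the isoforms of a gene could not be told apart.

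The niche was sampled from wild-type C57BL/6 mice in 31 libraries of 5 numbered experiments, by sorting live hippocampal cells that carried neither GluR1 nor Cd24 after most neurons had been removed. A single library came from wild-type C57BL/6 mice older than 12 months, prepared in the same way. Another held hippocampal cells sorted for GFP from the Nestin-GFP line, mice that carry a fluorescent reporter named for a gene of neural stem and progenitor cells, and which the labels also list as wild-type C57BL/6. Neither the age of the niche mice nor the number of mice behind an experiment is given in the labels. The tests allow each experiment its own level, so the p-values rest on how far differences between classes vary from one experiment to the next. This variation is estimated in a fit that all classes share and with genes borrowing from each other. It is thus not measured for each class and gene alone. That variation may be technical rather than between mice, and for experiment 2 the labels report a second sequencing of the original libraries.

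The niche libraries gave 1285 cells with at least 1000 transcripts out of 3840 wells. The 5 experiments held 435, 381, 155, 141 and 173 cells, and the median cell of each had 3526, 6121, 4055, 12392 and 1943 transcripts. The library of old mice gave 138 cells and the Nestin-GFP library 315. No 2 wells held identical counts, although 339 of 463 well numbers were used by more than 1 library. Cells were grouped without the D cyclins and without 49 cell cycle genes, using one random portion of each cell's counts, and the levels below come from the remaining portion. A class is called "-like" because its name rests on marker genes, and its level in an experiment is the sum over its cells, in counts scaled to a common total (CPM). In the levels and tests below a class enters an experiment only with at least 5 cells. Progenitor-like and neuroblast-like clusters were joined to 1 class, because the border between them moved with the settings. One cluster scored as lymphoid by its markers, with Ccl5, Gzma and Ms4a4b among its 10 leading genes, but Lyz1, Lyz2, S100a8 and S100a9, known from myeloid cells, and Cd74 and H2-Aa, of antigen-presenting cells, were among them too. It is therefore given no cell type name and its cells are called Ccl5-led. At least 3 markers of another class, unrelated by lineage, were also present in many cells: 84.3% of the oligodendrocyte precursor-like, 72.2% of the progenitor and neuroblast-like, 50% of the stem cell-like, 49.02% of the Ccl5-led and 29.2% of the microglia-like cells.

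Ccnd2 made up most of the D cyclin counts of progenitor and neuroblast-like cells, and Ccnd1 most of those of oligodendrocyte precursor-like and microglia-like cells, while Ccnd3 was scarce. Of the D cyclin counts of progenitor and neuroblast-like cells, 96.5% were Ccnd2 (1154 counts in all). Of those of oligodendrocyte precursor-like cells, 90.8% were Ccnd1 (632 counts), and of those of microglia-like cells 89.7% were Ccnd1 (116 counts). Each count stands for 1 captured 3' end, so these shares are not scaled by transcript length and take capture of the 3 genes to be alike.

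The split held from one experiment to the next. In progenitor and neuroblast-like cells Ccnd2 made up 97.4% ± 1.92 of the D cyclin counts (SD, n = 5 experiments), and never less than 95.1%. In oligodendrocyte precursor-like cells Ccnd1 made up 90.8% ± 2.86 (SD, n = 4), and never less than 87.4%. In microglia-like cells it made up 82.6% ± 18.2 (SD, n = 5), with the lowest share, 50%, in experiment 4, where the class held only 4 D cyclin counts. The other classes held 2 to 53 D cyclin counts each. Stem cell-like cells had 84.9% Ccnd2 among 53 and astrocyte-like cells 86% among 50. Ccl5-led cells had 72.5% Ccnd2 and 19.6% Ccnd3 among 51.

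**Figure D1:**
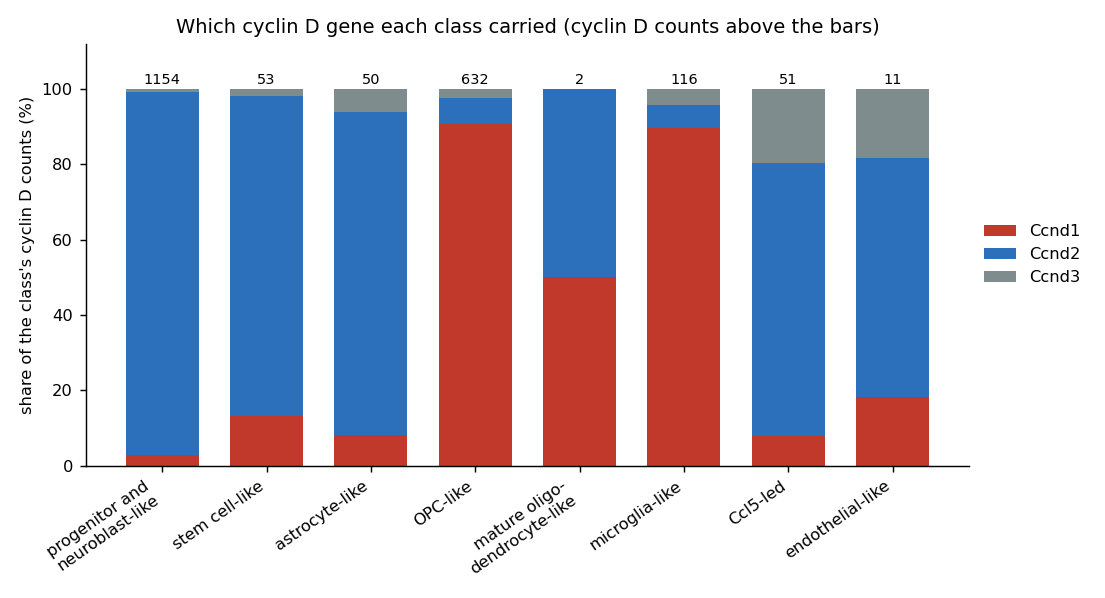
Share of each gene in the D cyclin counts of each class, in percent of the pooled niche counts, with the number of counts above each bar. Ccnd2 fills 96.5% of the bar of progenitor and neuroblast-like cells and Ccnd1 90.8% of the bar of oligodendrocyte precursor-like (OPC-like) cells; mature oligodendrocyte-like cells rest on 2 counts and endothelial-like cells on 11.

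Ccnd1, whose product is the D cyclin induced by growth factors in many cell types, stood highest in oligodendrocyte precursor-like cells, the dividing precursors of myelinating cells. Their level was 697, 798, 433 and 618 CPM in experiments 1, 2, 3 and 5, with a mean of 636 ± 154 CPM (SD, n = 4). Microglia-like cells, the resident macrophages of the brain, had 176, 231, 265, 57.3 and 157 CPM in experiments 1 to 5, with a mean of 177 ± 79.8 CPM (SD, n = 5). Every experiment with oligodendrocyte precursor-like cells lay above every value of microglia-like cells, and experiment 4 was the low one among the microglia-like values, on 2 counts. Oligodendrocyte precursor-like cells held 78.7% of all Ccnd1 counts of named niche cells, and microglia-like cells 14.3%.

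The remaining classes had little Ccnd1. In falling order, stem cell-like cells had 40.8 ± 48.8 CPM (SD, n = 4), progenitor and neuroblast-like cells 28.6 ± 21.7 (n = 5), endothelial-like cells 21.5 ± 30.5 (n = 2), Ccl5-led cells 14.6 ± 17.3 (n = 4), astrocyte-like cells 11.8 ± 12.4 (n = 5) and mature oligodendrocyte-like cells 2.61 ± 4.52 (n = 3). From microglia-like cells downwards the ranges of each neighbouring pair overlapped. The lowest microglia-like value, 57.3 CPM, was still above the highest value of endothelial-like (43.1), Ccl5-led (33.8), astrocyte-like (29.4) and mature oligodendrocyte-like cells (7.83). The 1153 niche wells with fewer than 100 transcripts, which can hold little beyond free RNA, had 109.7 CPM of Ccnd1 on 6 counts (95% Poisson interval 40.3 to 239, which covers counting error only). The level of oligodendrocyte precursor-like cells lay above this interval in every experiment. That of microglia-like cells lay within it in 4 of 5 and above it in experiment 3. Those of the other 6 classes lay within or under it. Such wells hold few transcripts, so their level sets no floor for cells, and the part of free RNA in cells was not tested.

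Set against the mean of the other classes, Ccnd1 was higher in oligodendrocyte precursor-like cells by 4.31 ± 0.32 on the log2 scale (± SE, adjusted p = 6.10e-29, edgeR quasi-likelihood test, Benjamini-Hochberg over 4548 genes). In that comparison 26.1% of the genes tested passed. In microglia-like cells it was higher by 2.80 ± 0.36 (edgeR adjusted p = 4.64e-12), where 34.1% of the genes passed. This contrast takes the mean of the classes on the log scale, in which classes near 0 weigh as much as any other. Against the sum of all other named cells Ccnd1 was higher by 2.90 in oligodendrocyte precursor-like cells, but the difference of microglia-like cells was 0.13 (edgeR adjusted p = 0.795).

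Ccnd1 was lower in astrocyte-like cells by the mean contrast (log2 difference -1.91 ± 0.77, edgeR adjusted p = 0.0467), where 28.8% of the genes passed. It was also lower in mature oligodendrocyte-like cells (-2.96 ± 1.11, edgeR adjusted p = 0.0400), where 22% passed. Both calls lay close to the threshold of 0.05 and were lost under 11 and 12 of the alternatives. Ccnd1 did not pass in the other 4 classes by the mean contrast. Against the sum of all other named cells, which includes the precursor-like cells, it was lower in progenitor and neuroblast-like cells (-2.81, edgeR adjusted p = 1.25e-12) and in stem cell-like cells (-2.62, edgeR adjusted p = 0.000118).

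**Figure D2:**
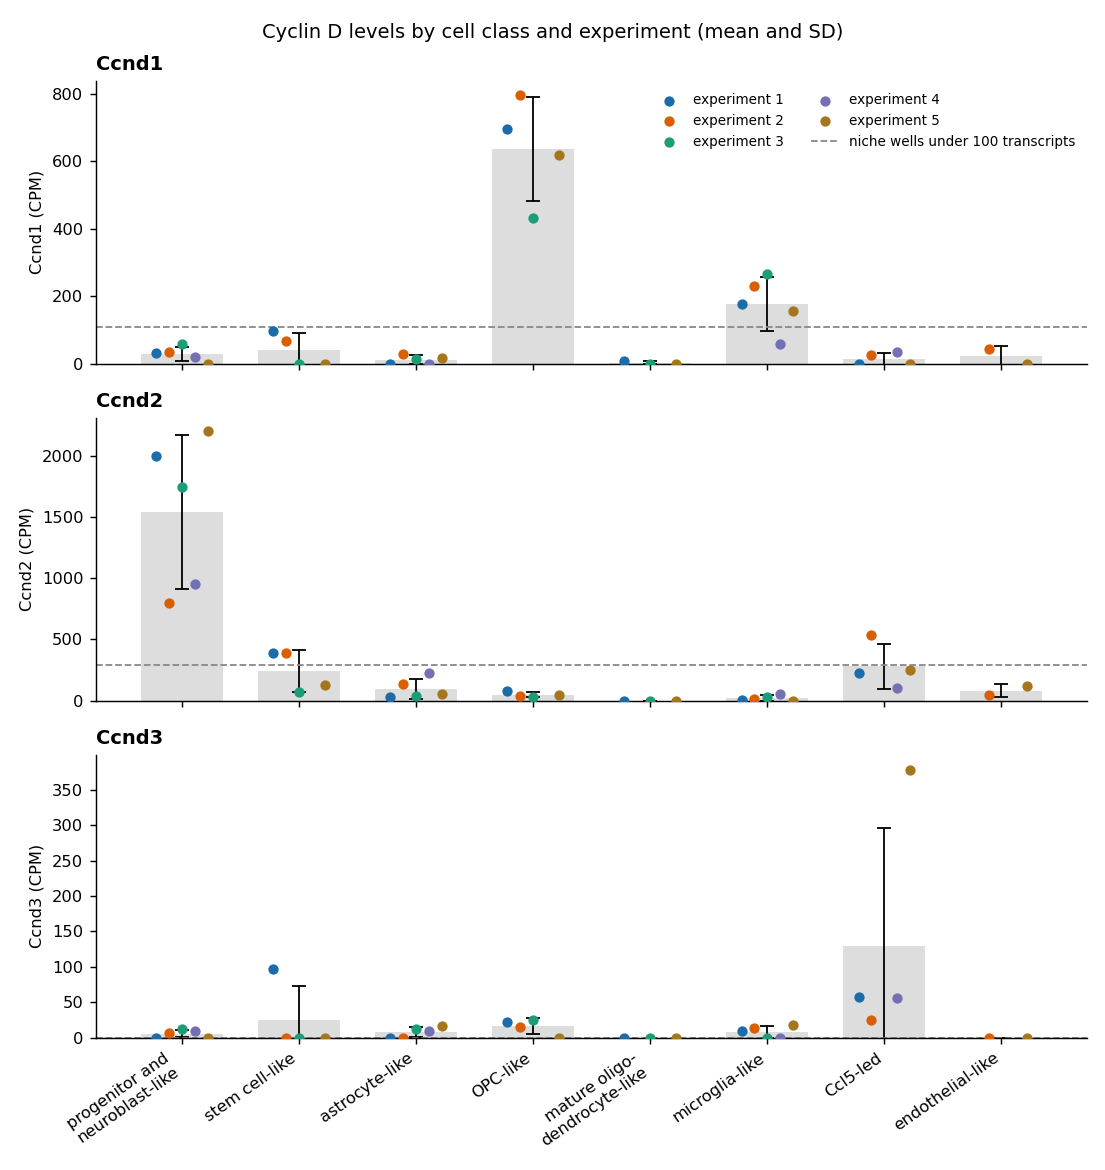
Level of Ccnd1, Ccnd2 and Ccnd3 in CPM by cell class; points are niche experiments with at least 5 cells of the class, bars their mean and error bars the SD, drawn down to 0 at most. The dashed line marks niche wells under 100 transcripts (109.7 CPM for Ccnd1, 292.5 CPM for Ccnd2, 0 for Ccnd3); Ccnd1 peaks in OPC-like cells at 636 CPM and Ccnd2 in progenitor and neuroblast-like cells at 1539.7 CPM.

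Ccnd2 reached the highest level of any D cyclin in any class in progenitor and neuroblast-like cells, the dividing and newly born cells on the way to granule neurons. Experiments 1 to 5 gave 1999, 800.3, 1746, 953 and 2199.5 CPM, with a mean of 1539.7 ± 628 CPM (SD, n = 5). Experiments 2 and 4, the low ones, held the most cells of the class, 103 and 81, and the deepest, with medians of 8182 and 14300.3 transcripts. The class held 85.2% of all Ccnd2 counts of named niche cells.

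The next classes were Ccl5-led and stem cell-like cells. Ccl5-led cells had 229, 537, 101.545 and 252 CPM of Ccnd2 in experiments 1, 2, 4 and 5 (mean 280.2 ± 184, SD, n = 4). Stem cell-like cells, which share astrocyte genes and are known to divide rarely, had 389, 385, 66.8 and 127 CPM in experiments 1, 2, 3 and 5 (mean 242 ± 169, SD, n = 4). The 2 classes overlapped with each other, and neither overlapped with progenitor and neuroblast-like cells. Niche wells under 100 transcripts had 292.5 CPM of Ccnd2 on 16 counts (167 to 475), an interval that covers the means of these 2 classes. It sets no floor for cells, and the part of free RNA in their counts was not tested.

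Astrocyte-like cells followed with 95.4 ± 81.6 CPM (SD, n = 5), endothelial-like cells with 81.1 ± 53.8 (n = 2), oligodendrocyte precursor-like cells with 47.9 ± 22.2 (n = 4) and microglia-like cells with 20.9 ± 23.3 (n = 5). The ranges of neighbours in this order overlapped from Ccl5-led cells downwards. Mature oligodendrocyte-like cells had 0 of 187843 counts over the 3 experiments with at least 5 of them, which allows up to 15.97 CPM. Endothelial-like, oligodendrocyte precursor-like, microglia-like and mature oligodendrocyte-like cells lay below the interval of the near-empty wells in every experiment, and astrocyte-like cells in all but experiment 4.

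By the mean contrast Ccnd2 was higher in progenitor and neuroblast-like cells by 4.94 ± 0.30 on the log2 scale (edgeR adjusted p = 3.85e-38), where 33.8% of the genes passed. Against the sum of all other named cells the difference was 3.84 ± 0.30 (edgeR adjusted p = 1.18e-35). The mean contrast also called Ccnd2 higher in Ccl5-led cells, by 2.05 ± 0.49 (edgeR adjusted p = 0.000370, 25.5% of genes passed), and in stem cell-like cells, by 1.999 ± 0.49 (edgeR adjusted p = 0.000692, 16% passed). Both of these turned round against the sum of all other cells, to -0.40 (edgeR adjusted p = 0.746) and -0.46 (edgeR adjusted p = 0.554), a sum that includes the progenitor and neuroblast-like cells.

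Without experiment 2 the Ccl5-led difference fell to 1.16 (edgeR adjusted p = 0.148) and the stem cell-like one to 1.34 (edgeR adjusted p = 0.192), so neither call was made without that experiment. In mature oligodendrocyte-like cells Ccnd2 passed as lower (edgeR adjusted p = 9.73e-05), with a fitted difference that depends on the prior count and is not given. The mean contrast did not call Ccnd2 in astrocyte-like, oligodendrocyte precursor-like or microglia-like cells. DESeq2 called it lower in microglia-like cells (-2.79, adjusted p = 0.000894). Against the sum of all other named cells it was lower in microglia-like (-4.42, edgeR adjusted p = 1.30e-08), oligodendrocyte precursor-like (-2.72, edgeR adjusted p = 1.57e-05) and astrocyte-like cells (-2.02, edgeR adjusted p = 8.85e-05). Neither gene passed in endothelial-like cells, a class of 2 experiments in which 8.64% of the genes passed.

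Ccnd3 was rare throughout, with 122 transcripts in all files against 3000 of Ccnd2 and 2176 of Ccnd1, and was listed in 26 of the 33 libraries. Its level was highest in Ccl5-led cells, at 57.4, 24.4, 56.4 and 379 CPM in experiments 1, 2, 4 and 5 (mean 129 ± 167, SD, n = 4). The value of experiment 5 stood far above the rest and comes from 3 counts. Stem cell-like cells had 24.3 ± 48.6 CPM (SD, n = 4), oligodendrocyte precursor-like cells 15.9 ± 11.4 (n = 4), microglia-like cells 7.89 ± 7.83 (n = 5), astrocyte-like cells 7.74 ± 7.63 (n = 5) and progenitor and neuroblast-like cells 5.56 ± 5.37 (n = 5). Mature oligodendrocyte-like and endothelial-like cells had none in these sums. All neighbours in this order overlapped. Of the 45 Ccnd3 counts of named niche cells, 33.3% were in oligodendrocyte precursor-like cells, 22.2% in Ccl5-led cells and 20% in progenitor and neuroblast-like cells. Ccnd3 did not pass the filter on low counts and was not tested.

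Along the neurogenic lineage, from astrocyte-like to stem cell-like to progenitor and neuroblast-like cells, Ccnd2 was higher at the last step. Progenitor and neuroblast-like cells exceeded stem cell-like cells by 2.58 ± 0.41 on the log2 scale (edgeR adjusted p = 6.53e-08), where 26.1% of the genes passed. Every experiment showed this direction among the 4 that held both classes. Without cycling cells in any class the difference was 1.34 (edgeR adjusted p = 0.0135). Experiments 1, 2 and 3 then kept the direction, at 1586, 441 and 874 CPM against 389, 385 and 73.5 CPM. Experiment 5 went the other way, with 0 of 5110 counts against 127 CPM on 2 counts in stem cell-like cells. Without the cells that held markers of a second class the difference fell to 0.81 (edgeR adjusted p = 0.309). That filter removed 166 of the 230 progenitor and neuroblast-like cells. Ccnd1 differed by -0.07 ± 0.69 at this step (edgeR adjusted p = 0.966), and its sign changed under several alternatives.

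Stem cell-like minus astrocyte-like cells gave 1.03 ± 0.49 for Ccnd2 (edgeR adjusted p = 0.295) and 1.43 ± 0.93 for Ccnd1 (edgeR adjusted p = 0.534), neither past the threshold, at a step where 4.18% of the genes passed. For Ccnd2 this changed to 1.71 (edgeR adjusted p = 0.0162) without experiment 4, in which astrocyte-like cells had their highest Ccnd2 level, 223 CPM, and a median of 15159 transcripts.

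Along the oligodendrocyte lineage Ccnd1 was near 0 at the mature end. Mature oligodendrocyte-like cells had 1 Ccnd1 count among 187843, and oligodendrocyte precursor-like cells 565 among 774250. The pooled level was 137-fold lower in the mature cells, with a counting interval of 24.5-fold to 5424-fold. The fitted difference was -6.35 ± 0.80 on the log2 scale (edgeR adjusted p = 4.83e-12), where 25.1% of the genes passed. In the sums of at least 5 cells Ccnd2 had 0 counts in the mature cells and 42 in the precursor-like cells. The pooled level in these sums was at least 3.40-fold lower, with 3 counts over the class as the floor. The 2 mature cells of experiment 2, outside these sums, had 1 Ccnd2 count, 56.3 CPM, beside 38.8 CPM in precursor-like cells there. Ccnd2 passed as lower with edgeR (adjusted p = 0.0102) but not with DESeq2 (adjusted p = 0.103), nor without experiment 1 (edgeR adjusted p = 0.287). Committed oligodendrocyte precursor-like cells, the stage between, numbered 15 and were not tested; they had 2 Ccnd1 counts (28.7 CPM, 3.47 to 104) and 5 Ccnd2 counts (71.7 CPM, 23.3 to 167).

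Cells were called cycling where the clustering portion of their counts held at least 3 of the 49 cell cycle genes and at least 2000 CPM of the list, which gave 104 niche cells. In progenitor and neuroblast-like cells Ccnd2 was higher in cycling cells in every experiment that could be compared. Experiments 1 to 4 gave 2351, 2044, 2952 and 2185 CPM in cycling cells, against 1586, 441, 874 and 428 CPM in the other cells of the class. The means were 2383 ± 399 CPM and 832 ± 543 CPM (SD, n = 4 each), and the 2 ranges did not overlap. The difference was 1.95 ± 0.18 on the log2 scale (edgeR adjusted p = 8.58e-10, over 1683 genes), where 21.4% of the genes passed. The gap was narrowest in experiment 1, which held 6 cycling and 7 other cells. In experiment 5 all 31 Ccnd2 counts lay in 3 cycling cells and 0 of 5110 counts in 5 others.

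Depth differed between the states and its part in the result was not tested. Cycling cells were the deeper ones in experiments 1, 2, 3 and 5, with medians of 4686, 8983, 6608 and 2989 transcripts, against 3519, 8179, 5245 and 1943 in the others. They were the shallower ones in experiment 4, with 7861 transcripts against 14736 in the others. Their pooled level of the cycle list in the portion not used to call them was 10378 CPM, against 791 CPM in the others. Ccnd1 did not pass the filter here. It had 58.8, 91.5, 84.3 and 36.7 CPM in cycling cells of experiments 1 to 4, on 1, 9, 3 and 6 counts, against 0, 17.6, 40.7 and 10.4 CPM in the others, on 0, 6, 2 and 4 counts. Cycling cells had the larger value in each experiment, though without the filter the difference did not pass (edgeR adjusted p = 0.124). Ccnd2 thus exceeded Ccnd1 in both states.

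In the classes with mostly Ccnd1, cycling cells were few. Cycling oligodendrocyte precursor-like cells, 13 in number, had 618 CPM of Ccnd1 (391.9 to 928), against 727 CPM (667 to 790) in the other 248. Cycling microglia-like cells, also 13, had 225 CPM (73.1 to 525), against 192 CPM (156 to 233) in the other 275. The intervals, which are exact Poisson 95% ranges and cover counting error only, overlapped in both classes, and too few experiments held enough such cells for a test. Ccnd2 had 0 of 37207 counts in the cycling oligodendrocyte precursor-like cells, which allows up to 80.6 CPM, against 56.7 CPM (41.03 to 76.4) in the others, so a difference was not detectable at this depth. That limit lies far under the 2271 CPM (2109 to 2441) of cycling progenitor and neuroblast-like cells. Cycling Ccl5-led cells, only 5, had 2 Ccnd2 counts, 105 CPM (12.7 to 380), against 252 CPM (175 to 350) in the other 46.

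**Figure D3:**
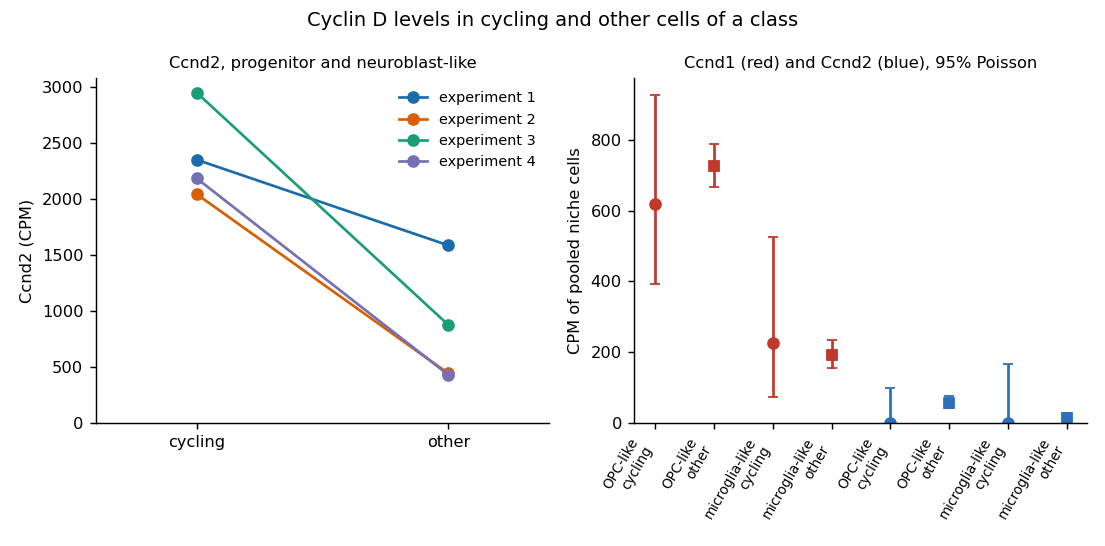
Left, Ccnd2 in CPM in cycling and other progenitor and neuroblast-like cells, with a line for each of 4 experiments; right, Ccnd1 (red) and Ccnd2 (blue) in pooled cycling and other OPC-like and microglia-like cells with exact 95% Poisson intervals. Every line on the left falls towards the other cells, while on the right the Ccnd1 intervals of cycling and other cells overlap, at 618 and 727 CPM in OPC-like cells.

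Within the class, Ccnd2 was high in the progenitor-like cluster and in the cycling cells of both neuroblast-like clusters. The progenitor-like cluster (50 niche cells, 44 of them cycling) had 2389 CPM of Ccnd2 (2210 to 2579) and 90.6 CPM of Ccnd1 (58.7 to 134). Its 10 leading genes held Top2a, Ccna2, Rrm2, Mki67 and Pbk of the cycle list and Ccnd2 itself. Insm1, one of the progenitor markers, was also among them. The progenitor-like name and the cycling state of this cluster therefore cannot be told apart. The 2 neuroblast-like clusters had 539 and 546 CPM of Ccnd2, and 10.8 and 2.66 CPM of Ccnd1. In the larger neuroblast-like cluster, 16 cycling cells had 1719 CPM (1377 to 2120) of Ccnd2, against 394 CPM (336 to 460) in 120 others. In the smaller, 4 cycling cells had 2471 CPM (1947 to 3093), against 374 CPM (312 to 445) in 40 others. The 6 cells of the progenitor-like cluster that were not called cycling had 2595 CPM (2081 to 3197). They were grouped with cycling cells, and whether they lay just under the call was not tested. The smaller neuroblast-like cluster was almost wholly from experiment 4 and was led by Cd24a, although the sort took Cd24-negative cells; its part in the results was not tested beyond leaving out that experiment. Both clusters of oligodendrocyte precursor-like cells had high Ccnd1, at 653 and 776 CPM, as both of microglia-like cells had a middling level, at 179 and 225 CPM.

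Counting cycle genes per cell gave a graded view of the same pattern. In progenitor and neuroblast-like cells with 0, 1, 2, 3 to 4, and 5 or more of the genes, Ccnd2 was at 327, 285, 544, 572 and 1423 CPM. The highest bin stood clear of the others by its counting interval (1330.3 to 1519.9). In oligodendrocyte precursor-like cells Ccnd1 was at 636, 725, 708, 803 and 807 CPM in the same bins, with intervals that overlapped throughout. Depth moved with these bins, with medians of 3435 to 12449 transcripts in the first class and 3861 to 12660.4 in the second, and its part was not tested.

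**Figure D4:**
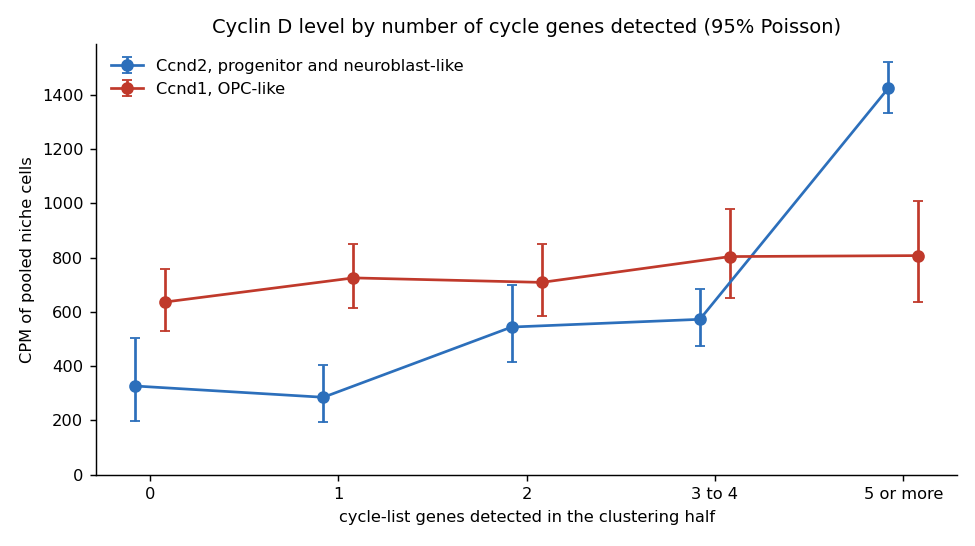
Ccnd2 in progenitor and neuroblast-like cells (blue) and Ccnd1 in OPC-like cells (red), in CPM of pooled niche cells, by the number of cycle-list genes detected in the portion of the counts used for clustering; bars are exact 95% Poisson intervals. Ccnd2 reaches 1423 CPM in cells with 5 or more such genes, while Ccnd1 runs from 636 to 807 CPM.

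The same split showed cell by cell. With each cell thinned to 1000 transcripts, 43.7% of 261 oligodendrocyte precursor-like cells had a Ccnd1 count (exact binomial 95% interval 37.6% to 49.9%) and 6.13% a Ccnd2 count. Of 230 progenitor and neuroblast-like cells, 41.7% had a Ccnd2 count (35.3% to 48.4%) and 2.61% a Ccnd1 count. Without thinning the leading genes were seen in 83.1% and 73.04% of these cells. Mature oligodendrocyte-like cells served as the reference, because they had the lowest levels in these same data. Of these cells 0 of 66 had a thinned count of any of the 3 genes, which allows a share of up to 4.55%. Median depths were 5446 transcripts in oligodendrocyte precursor-like, 8114 in progenitor and neuroblast-like and 5337 in mature oligodendrocyte-like cells. Unthinned, 3.03% of the mature oligodendrocyte-like cells had a Ccnd1 and 1.52% a Ccnd2 count.

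Ccnd2 was seen after thinning in 23.5% of 51 Ccl5-led cells (12.8% to 37.5%), in 14.8% of 54 stem cell-like cells (6.62% to 27.1%) and in 3.65% of 219 astrocyte-like cells (1.59% to 7.07%). Microglia-like cells had a Ccnd1 count in 13.5% of 288 cells (9.81% to 18.04%). The intervals of Ccl5-led, stem cell-like and microglia-like cells lay above 5.44%, the exact upper limit for mature oligodendrocyte-like cells, and that of astrocyte-like cells overlapped it, as a description against the class with the lowest levels. All these intervals pool cells over experiments and do not cover the spread between experiments. The lowest shares of an experiment were 7.14% in Ccl5-led cells (experiment 4), and 0% in stem cell-like and 2.78% in microglia-like cells (experiment 3).

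Of Ccnd1 and Ccnd2, most cells with a count showed only the leading gene of their class, though a gene without a count may have been missed. Most cells with the minor gene also showed the leading one. Ccnd3 was left out here. Unthinned, 172 of 261 oligodendrocyte precursor-like cells had Ccnd1 without Ccnd2, 45 had both, 7 had Ccnd2 alone and 37 neither. Of 230 progenitor and neuroblast-like cells, 141 had Ccnd2 without Ccnd1, 27 had both, 2 had Ccnd1 alone and 60 neither. A single cell reached at most 108 counts of Ccnd2 in this class, and at most 30 of Ccnd1 among oligodendrocyte precursor-like cells.

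**Figure D5:**
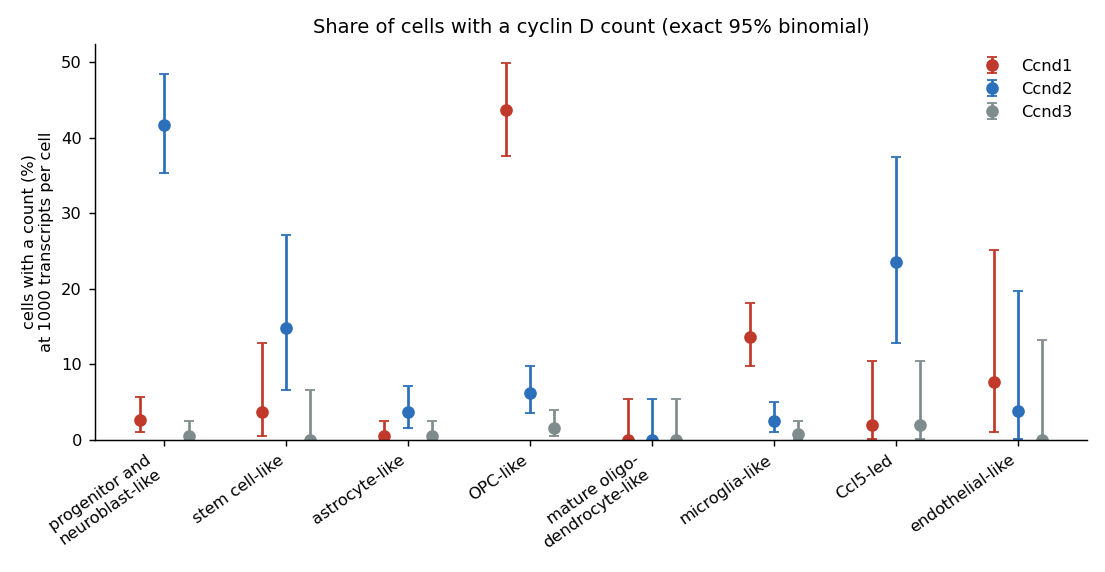
Share of niche cells of each class with a count of Ccnd1, Ccnd2 or Ccnd3, in percent, after thinning each cell to 1000 transcripts; bars are exact 95% binomial intervals over cells pooled from all experiments. OPC-like cells stand out for Ccnd1 (43.7%) and progenitor and neuroblast-like cells for Ccnd2 (41.7%), and Ccnd3 was seen in at most 1.96% of the cells of any class.

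The single libraries of old and of Nestin-GFP mice showed the same split, as values without a test. Old oligodendrocyte precursor-like cells had 789 CPM of Ccnd1 (614 to 999) and those of the Nestin-GFP library 828 CPM (715 to 953), beside 433 to 798 CPM in the niche experiments. Old progenitor and neuroblast-like cells had 1089 CPM of Ccnd2 (829 to 1405) from 12 cells. Those of the Nestin-GFP library had 773 CPM (636 to 930.4) from 43 cells, near the lowest niche experiment at 800.3. Old microglia-like cells had 228 CPM of Ccnd1 (151 to 329) and old Ccl5-led cells 418 CPM of Ccnd2 (248 to 660.4), both within the range of the niche experiments. Old oligodendrocyte precursor-like cells had 137 CPM of Ccnd2 on 12 counts (70.9 to 240), beside 25.5 to 77.8 CPM in the niche experiments, and their interval overlapped that range. In the Nestin-GFP library 90 mature oligodendrocyte-like cells had 20.5 CPM of Ccnd1 (8.25 to 42.3) on 7 counts. Its 3 stem cell-like cells had 945 CPM of Ccnd2 (347 to 2056) on 6 counts.

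The partners and controllers of the D cyclins were read from 6 lists of 35 genes, of which 7 passed the filter on low counts; no pocket protein or E2F gene did, so the targets of the pathway could not be tested. These genes, apart from Ccna2, were not kept out of the grouping of cells, so they may have helped to draw the classes. Ccna2 was in the list that called cells cycling. Cdk4, the kinase partner, was higher in the 2 classes with the highest D cyclin levels. It averaged 604 ± 105 CPM in progenitor and neuroblast-like cells (SD, n = 5) and 275 ± 94.4 CPM in oligodendrocyte precursor-like cells (SD, n = 4). Against the other classes it was higher by 2.42 ± 0.26 in progenitor and neuroblast-like cells (edgeR adjusted p = 1.07e-15) and by 1.10 ± 0.31 in oligodendrocyte precursor-like cells (edgeR adjusted p = 0.00282). In microglia-like cells, the other class with Ccnd1, the difference was -0.70 ± 0.37 (edgeR adjusted p = 0.139).

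In progenitor and neuroblast-like cells 5 of the 7 tested genes were higher and 1 lower than in the other classes, where 1126 of all 4548 genes were higher and 411 lower. Besides Cdk4, the higher ones were Cdkn1b, an inhibitor of cyclin-dependent kinases (1.20 ± 0.28, edgeR adjusted p = 0.000195), Ccna2, the cyclin of S phase and G2 (4.99 ± 0.51, edgeR adjusted p = 3.26e-17), Gsk3b, a kinase that marks cyclin D1 for breakdown (1.09 ± 0.29, edgeR adjusted p = 0.00126), and Mycn, a growth regulator of neural progenitors (4.30 ± 0.54, edgeR adjusted p = 2.89e-12). Foxo1, a transcription factor that restrains the cell cycle, was lower by the same contrast (-2.41 ± 0.42, edgeR adjusted p = 5.92e-07). The median of the 4548 genes tested was 0.20. The filter on low counts can admit a gene that is high in 1 class alone. Ccna2 had 313 CPM in progenitor and neuroblast-like cells and at most 21.5 CPM in any other class. Its difference is therefore no independent evidence, and the tally of the 7 genes is a description.

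In oligodendrocyte precursor-like cells Cdk4 was higher and Foxo1 lower (-1.85 ± 0.42, edgeR adjusted p = 0.000154), which is 2 of 7 beside 26.1% of all genes. In microglia-like cells 1 of 7 passed, beside 34.1% of all genes: Cdkn1a, the inhibitor known as a target of p53, was higher by 3.83 ± 0.37 (edgeR adjusted p = 2.44e-19). Counts of so few genes close to or under the share of all genes say nothing particular of the pathway. At the step to progenitor and neuroblast-like cells from stem cell-like cells 26.1% of all genes passed. There Cdk4 was higher (2.30 ± 0.46, edgeR adjusted p = 1.61e-05) and Foxo1 lower (-3.23 ± 0.54, edgeR adjusted p = 1.92e-07). Ccna2 also passed as higher (edgeR adjusted p = 6.32e-06). It had 0 CPM in stem cell-like cells, so its fitted difference depends on the prior count and is not given. In mature against precursor-like oligodendrocyte cells only Cdk4 passed, beside 25.1% of all genes, and was lower (-1.73 ± 0.59, edgeR adjusted p = 0.0168). In stem cell-like against astrocyte-like cells only Mycn passed, beside 4.18% of all genes, and was higher (3.94 ± 0.90, edgeR adjusted p = 0.00113). Between cycling and other progenitor and neuroblast-like cells none of the 4 tested genes passed with edgeR, beside 21.4% of all genes, and 1 of them, Cdk4, had an unadjusted p under 0.05 (0.48 ± 0.20, edgeR adjusted p = 0.0833).

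The genes whose class means ran closest to each D cyclin were found by Pearson's r of log2(CPM + 10) over the 8 classes, among 4919 genes with a mean of at least 50 CPM; the classes share experiments and libraries, so r is a description. For Ccnd2 they were Ppdpf (r = 0.98), Magoh (0.98), Eomes (0.97), Ssbp3 (0.96) and Bcl11a (0.95). Eomes, a transcription factor of intermediate progenitors, averaged 754 CPM in progenitor and neuroblast-like cells and was among the markers that named the clusters. For Ccnd1 they were Naa60 (0.90), Tnfrsf21 (0.88), 9530068E07Rik (0.85), Sgpl1 (0.85) and Gng3 (0.85). For Ccnd3 they were Ino80d (0.97), Gzmb (0.92), Nemf (0.92), Trim11 (0.91) and Leprotl1 (0.91); Gzmb, a granzyme of cytotoxic lymphocytes, averaged 394 CPM in Ccl5-led cells, and the Ccnd3 profile rests on few counts.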

How the data were processed

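Libraries were made by SORT-seq, per the labels' protocols. The submitters' processing notes name BWA 0.6.2-r126 and the build mm10; for counting tool and annotation, nothing is given in the sources used here. The authors deposited estimated counts after a correction for UMI saturation: 99.3% to 100% of a library's values invert to whole UMIs within 0.05. They were rounded. Spike-ins and mitochondrial genes were left out, as were wells under 1000 transcripts. No doublet caller was run.

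Each cell's counts were divided at random (share 0.5, seed 1). The first portion served for clustering (2000 variable genes, 30 components, 15 neighbours, leidenalg 0.10.2, resolution 1), for naming from 17 marker sets and for calling cycling cells, and the second portion for levels and tests. Shares of cells used all counts of a cell. A class was named at a marker score of at least 0.5 on at least 3 markers. Sums per experiment and class were tested with edgeR 4.0.16 (R 4.3.3; TMM, filterByExpr, quasi-likelihood, Benjamini-Hochberg, adjusted p under 0.05) with the experiment as a block. Experiment numbers come from the labels and were taken to mark a shared sort; sums of the same experiment deviated together with a median correlation of 0.14 over 91 pairs, against -0.03 over 353 pairs of different experiments. SEs are implied by the F statistic. DESeq2 1.42.0, other cell filters, resolutions and divisions, and leaving out each experiment were tried. The test was tried on simulated data.

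The named genes are the 3 members, genes of the pathway lists that passed a test described, and the 5 most alike in profile. Members and lists were chosen with earlier results of these data known. The clustering was revised once after class levels of the D cyclins had been seen: variable genes are now chosen without pooling all cells, and the first version is an added alternative. Joining progenitors with neuroblasts, and the comparison with the sum of all other cells, were also chosen after seeing the data.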

Additional observations from a re-analysis of the deposited data

Results flagged for a closer look

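Of 24 groups of 4 or 5 experiments examined, 2 held a value far from the others. The rule's nominal rate of about 1 in 20 does not hold for levels near 0. There 1 count in 1 experiment with 0 in the rest is always flagged, so no comparison with chance is drawn. Ccnd3 in Ccl5-led cells stood at 379 CPM in experiment 5, on 3 counts from 6 cells. Ccnd3 in stem cell-like cells stood at 97.2 CPM in experiment 1, on 1 count from 6 cells, with 0 in the other 3 experiments.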

How the results depend on the processing

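Values are log2 differences unless stated, and the cause of a change was not tested. Ccnd1 in oligodendrocyte precursor-like cells (2.90 to 5.47), Ccnd1 in mature against precursor-like oligodendrocyte cells (-8.97 to -6.14), Ccnd2 in progenitor and neuroblast-like cells (3.59 to 5.32) and Ccnd2 in their cycling against other cells (1.63 to 2.29) kept direction and call under every alternative run. The cycling comparison gave no value without second-class cells, a filter that removed 166 of the 230 cells of the class. With no replicate block the Ccnd2 difference of progenitor and neuroblast-like cells was 4.88 and that of their cycling cells 1.74. The one call lost without the block was Ccnd1 in mature oligodendrocyte-like cells (-2.94, edgeR adjusted p = 0.0525).

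That call was also lost with DESeq2 (-2.60), no filter on low counts (-2.84), at least 2000 transcripts per cell (-2.80), at least 3 cells per sum (-2.72), and without second-class cells (-3.09) or cycling cells (-2.69), with pooled variable genes (-2.63) and with 2 neurogenic classes (-2.71). The lower Ccnd1 of astrocyte-like cells was lost with DESeq2 (-1.88), no filter (-1.84), whole UMI numbers (-1.41), seed 2 (-2.23), cyclin D and cycle genes kept in the clustering (-1.86), 3 cells (-1.84), without second-class cells (-0.49) and with 2 neurogenic classes (-1.72). Stem cell-like Ccnd2 was lost with whole UMI numbers (1.51) and 2000 transcripts (1.06), and turned against the sum of all other cells (-0.46). Ccnd2 of Ccl5-led cells was lost without second-class cells (1.45) and turned against that sum (-0.40), as did astrocyte-like Ccnd2 (-2.02); microglia-like Ccnd1 was lost there (0.13). Without second-class cells Ccnd2 was also lost in progenitor and neuroblast-like against stem cell-like cells (0.81) and in mature against precursor-like oligodendrocyte cells (-3.78; DESeq2 -3.24), and passed in stem cell-like against astrocyte-like cells (2.39).

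Astrocyte-like Ccnd2 passed as higher at 500 transcripts (1.22, edgeR adjusted p = 0.0447). Without cycling cells the Ccnd2 difference of progenitor and neuroblast-like against stem cell-like cells was 1.34. Ccnd1 differences not called by the mean contrast changed sign: progenitor and neuroblast-like against stem cell-like cells with no filter (0.0080), seed 2 (0.083), 2000 transcripts (0.26), resolution 0.6 (0.0066) or 1.5 (0.025) and 3 cells (0.095); endothelial-like with whole UMI numbers (1.21), all UMIs (0.47), seed 2 (0.78) and 500 transcripts (0.15); stem cell-like with whole UMI numbers (0.37) and seed 2 (0.11); progenitor and neuroblast-like with seed 2 (0.21).

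Leaving out each experiment gave -2.56 to -1.18 for Ccnd1 in astrocyte-like, -5.47 to -2.60 in mature oligodendrocyte-like, -1.94 to 0.15 in Ccl5-led, -1.73 to 0.13 in stem cell-like and -0.66 to 0.046 in progenitor and neuroblast-like cells, and -0.70 to 1.53 for the last against stem cell-like cells. For Ccnd2 it gave 1.16 to 2.55 in Ccl5-led and 1.34 to 2.38 in stem cell-like cells, 0.64 to 1.71 for stem cell-like against astrocyte-like cells and -5.66 to -4.57 for mature against precursor-like oligodendrocyte cells.

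Without cycling cells the Ccnd2 level of progenitor and neuroblast-like cells was 666 ± 600 CPM (SD, n = 5, range 0 to 1586), against 1539.7 CPM with them. Unthinned shares of cells with a count were 73.04% (Ccnd2, progenitor and neuroblast-like), 42.6% (stem cell-like), 17.3% (astrocyte-like), 56.9% (Ccl5-led), 83.1% (Ccnd1, oligodendrocyte precursor-like) and 38.5% (microglia-like). With at least 500 transcripts no stem cell-like class formed, so its comparisons gave no value. The classes with 72.2% and 84.3% of second-class cells were also deep ones, and for oligodendrocyte precursor-like cells that filter left 159 called genes, against 1188 with all cells. Across alternatives the counts of called genes ran from 159 to 2655 for these cells, 285 to 2694 (1537) for progenitor and neuroblast-like, 446 to 2151 (1312) for astrocyte-like, 456 to 2692 (1550) for microglia-like, 453 to 1966 (1161) for Ccl5-led, 289 to 1728 (999) for mature oligodendrocyte-like, 227 to 1230 (726) for stem cell-like and 293 to 692 (393) for endothelial-like cells. For the steps they ran from 334 to 1936 (1185), 255 to 1929 (1143) and 53 to 341 (190), and for cycling cells from 141 to 891 (360).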

Other observations

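Cells outside the comparisons also held D cyclins. An unnamed cluster of 66 niche cells, led by haemoglobin genes together with Dcn and Col1a2, which are known from fibroblasts, had 130.5 CPM of Ccnd2 (73.02 to 215) and 60.9 CPM of Ccnd1 (24.5 to 125). The 8 mature neuron-like cells that remained had 5 Ccnd2 counts, 177 CPM (57.3 to 412), and 0 of 28325 counts for Ccnd1. Endothelial-like cells of old mice had 612 CPM of Ccnd1 (199 to 1428) on 5 counts from 6 cells, and those of the Nestin-GFP library 189 CPM (39.05 to 553) on 3 counts from 13 cells, beside 42 CPM (5.09 to 152) on 2 counts in 26 niche cells. These are single libraries with no replicate.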
